A study of Mus musculus with 12 samples.

Results

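The comparison described here sets the aortas of mice given tauroursodeoxycholic acid (TUDCA) on a high-fat diet against the aortas of mice on the same diet without it. It uses 8 of the 12 RNA sequencing libraries of the study: 4 labelled HFD+TUDCA and 4 labelled HFD. The libraries were taken by their labels alone, and the 4 normal-fat-diet (NFD) libraries were left out. Every mouse was a male ApoE-/- animal, 8 weeks old at the start. HFD+TUDCA mice ate a diet of 16% fat and 0.25% cholesterol for 8 weeks, and then received 1000 mg/kg TUDCA by gavage once a day for 4 weeks. HFD mice ate the same diet and received saline for the last 4 weeks. The deletion of Apoe is therefore shared by both groups, and no library of mice with intact Apoe is part of the comparison. Tissue was taken from the ascending aorta down to the bifurcation, as a whole and without sorting of cells. The labels do not say whether a library holds 1 animal or a pool, so the p-values measure the spread between these libraries. In whole tissue, fewer cells of a type and less RNA per cell cannot be told apart.

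TUDCA is the taurine conjugate of a hydrophilic bile acid and is widely used as a chemical chaperone that eases the folding of proteins in the endoplasmic reticulum (ER). When unfolded proteins build up there, the sensors IRE1, ATF6 and PERK switch on the unfolded protein response: XBP1 and ATF6 raise chaperones and degradation factors, and PERK raises ATF4 and its targets. In mice without apolipoprotein E, a fatty diet drives atherosclerosis, in which macrophages loaded with cholesterol become foam cells and make chemokines that draw in more leukocytes.

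The libraries held 15199312 to 22061687 counts each, and 14587 of 22183 genes passed the filter on low counts. Pearson correlations of log2 CPM, where CPM is a gene's count scaled to the size of its library, ran from 0.853 to 0.967 within HFD+TUDCA, from 0.914 to 0.949 within HFD, and from 0.844 to 0.954 between the groups. The library HFD+TUDCA 4 stood apart on the first principal component (42.5% of the variance), and the library HFD 4 stood apart in stress genes described below. Smooth muscle markers were present throughout: Acta2, the actin of contractile smooth muscle, had 1049 to 1994 CPM in HFD+TUDCA and 668 to 1415 CPM in HFD. Residual Apoe counts had 11.3 to 33.7 CPM in HFD+TUDCA and 14.1 to 21.4 CPM in HFD, a log2 fold change of 0.04 ± 0.34 (SE) whose sign turned under 6 other settings, limma-voom and both FPKM scales among them. Since all 8 libraries carry the deletion, this value checks no group label.

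Ccl9, Alox5ap, S100a8 and Hspa5 were lower in every HFD+TUDCA library than in any HFD library. These 4 genes came with the choice of the comparison, made with earlier results of these data known. Their separation is therefore no independent result. Ccl9 (ENSMUSG00000019122, chr11:83572919-83578636 on GRCm38, minus strand), a CC chemokine of myeloid cells, had 76.2, 72.8, 99.5 and 51.0 CPM in HFD+TUDCA 1 to 4, and 418, 248, 284 and 206 CPM in HFD 1 to 4. The highest HFD+TUDCA library, replicate 3, lay below the lowest HFD library, replicate 4. Its log2 fold change was -1.95 ± 0.28 (SE), 3.86-fold lower in HFD+TUDCA.

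Alox5ap (ENSMUSG00000060063, chr5:149264767-149288153, plus strand) encodes the protein that hands arachidonic acid to 5-lipoxygenase in leukotriene synthesis. It had 20.9, 22.1, 27.8 and 18.9 CPM in HFD+TUDCA 1 to 4, and 84.7, 54.4, 54.0 and 55.7 CPM in HFD 1 to 4. HFD 1 stood above the other 3 HFD libraries, which lay close together and still well above HFD+TUDCA. The log2 fold change was -1.47 ± 0.21.

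S100a8 (ENSMUSG00000056054, chr3:90668978-90670035, plus strand) encodes one chain of calprotectin, an abundant protein of neutrophils and monocytes. It had 5.21, 6.995, 8.35 and 18.3 CPM in HFD+TUDCA 1 to 4, and 120, 156, 47.9 and 238 CPM in HFD 1 to 4. Although HFD spread widely, its lowest library (replicate 3) was still above the highest HFD+TUDCA library (replicate 4). The log2 fold change of -3.85 ± 0.57 is 14.4-fold lower in HFD+TUDCA.

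Hspa5 (ENSMUSG00000026864, chr2:34771970-34777547, plus strand) encodes BiP, the main Hsp70 chaperone of the ER. It had 139, 170, 188 and 271 CPM in HFD+TUDCA 1 to 4, and 392, 279, 490 and 448 CPM in HFD 1 to 4. The gap between the groups was narrow, with HFD+TUDCA 4 just under HFD 2. The log2 fold change was -1.07 ± 0.26, or 2.10-fold lower in HFD+TUDCA. By edgeR, adjusted over all genes tested, none of these 4 genes passed: the adjusted p was 0.147 for Ccl9, Alox5ap and S100a8 and 0.237 for Hspa5. DESeq2 called all 4, and its adjusted p for Hspa5 was 0.00516, within a range of 0.00516 to 0.697 over the settings tried. Without 1 library at a time, the log2 fold change stayed between -2.11 and -1.72 for Ccl9, between -1.59 and -1.29 for Alox5ap, between -4.35 and -3.47 for S100a8 and between -1.26 and -0.96 for Hspa5.

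**Figure D1:**
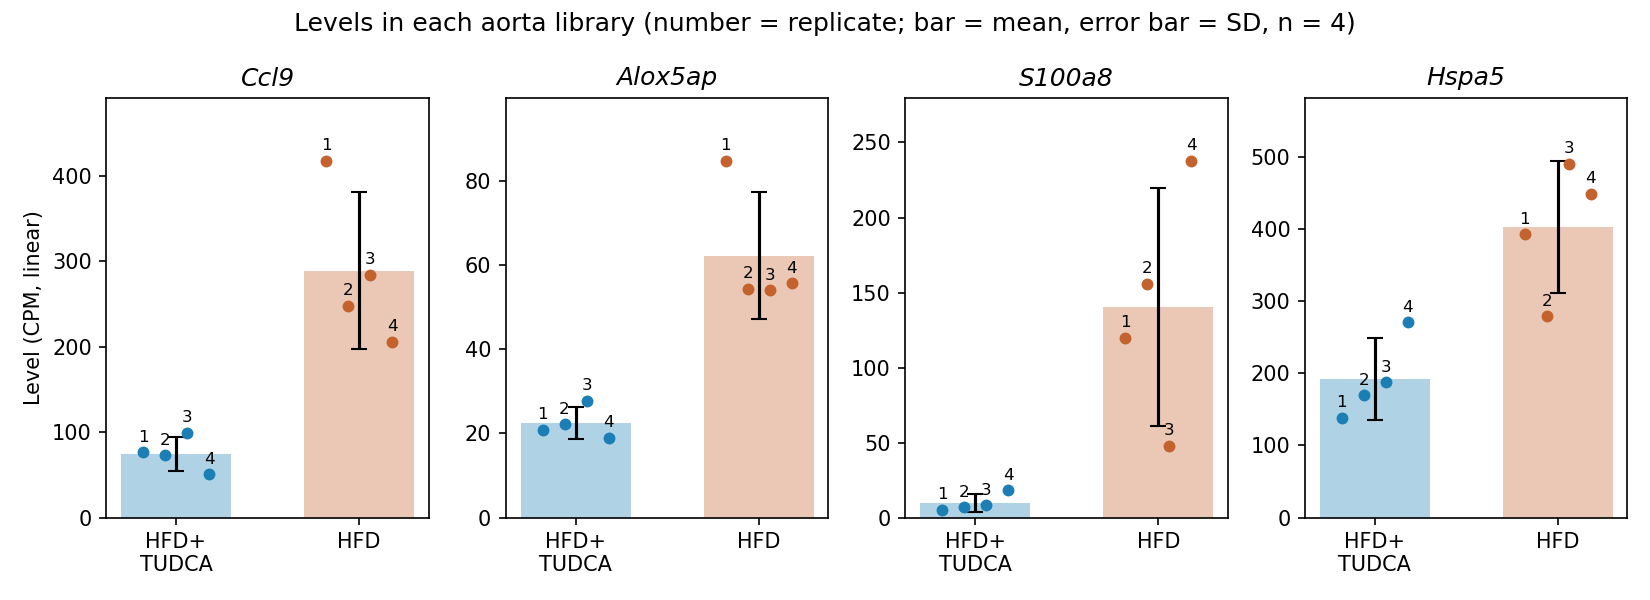
Level of Ccl9, Alox5ap, S100a8 and Hspa5 in CPM (linear axis from 0) in each library; points are libraries with their replicate number, bars are group means and error bars are SD (n = 4). All HFD+TUDCA points lie below all HFD points, and the gap is narrowest for Hspa5 (271 CPM in HFD+TUDCA 4 and 279 CPM in HFD 2).

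Over all genes, edgeR's quasi-likelihood test called 0 of 14587 genes (percent called 0), with a lowest adjusted p of 0.147. At an unadjusted p under 0.05, 954 genes (6.54%) were lower in HFD+TUDCA and 791 genes (5.42%) were higher. Without 1 library at a time, the share of lower genes was 4.23% to 9.33% and that of higher genes 2.68% to 7.57%; without both libraries numbered 4 they were 15.1% and 7.33%. In 609 genes (4.17%) all HFD+TUDCA libraries lay below all HFD libraries, and in 477 genes (3.27%) all lay above. DESeq2, the tool that the labels name for the study's own comparisons, called 356 of the 14034 genes to which it gave an adjusted p. Of these, 280 (2.00%) were lower in HFD+TUDCA and 76 (0.542%) were higher; 271 of the 280 were also tested by edgeR. The number rested strongly on single libraries: it was 151 without HFD+TUDCA 1, 182 without HFD+TUDCA 2, 190 without HFD 1 and 771 without HFD 3. In all 8 fits without 1 library, 106 of the 356 genes kept their call, 98 of them lower and 8 higher in HFD+TUDCA. Below, a gene is said to be lower or higher by its values, and "called" refers to DESeq2 alone.

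**Figure D2:**
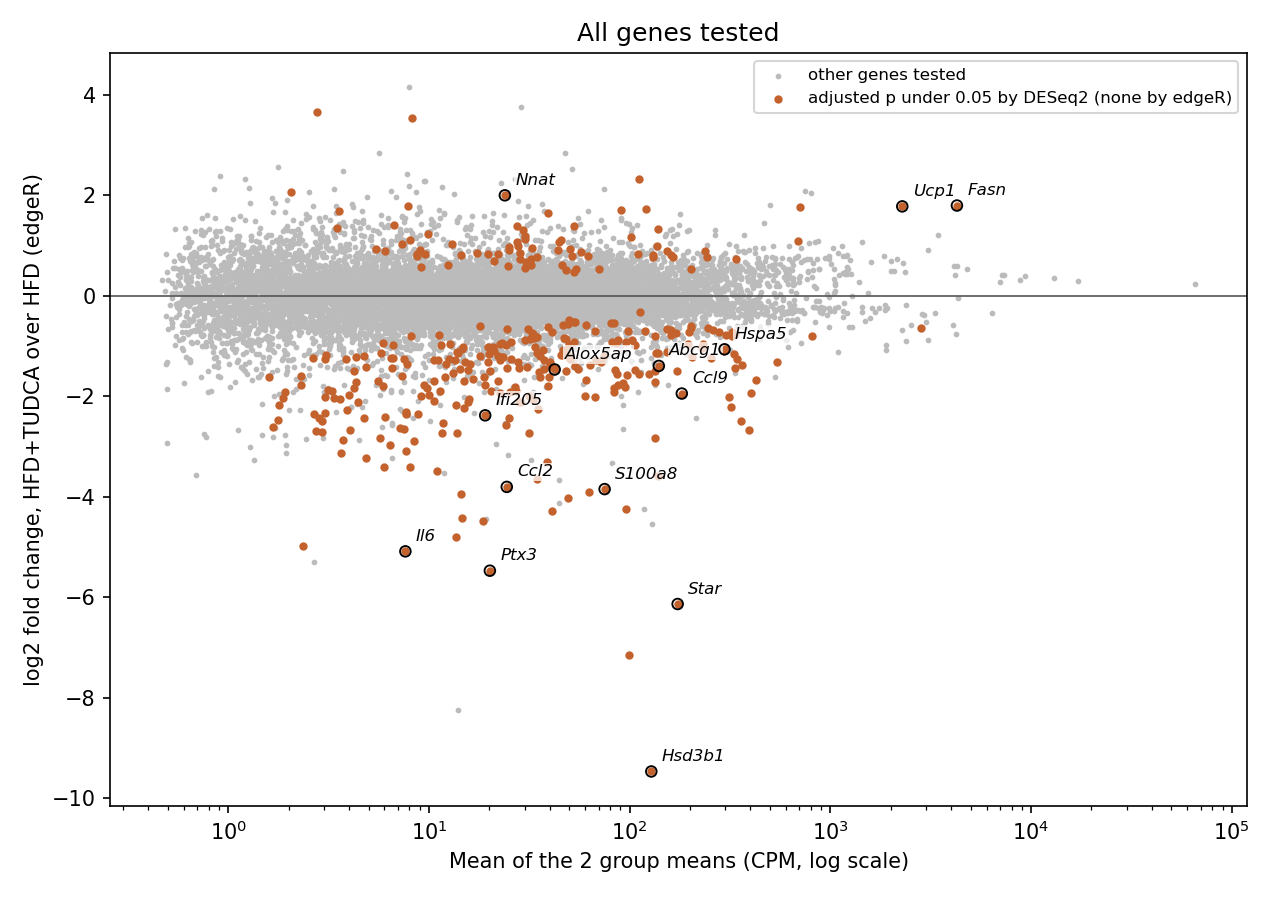
Each point is 1 of the 14587 genes tested; the horizontal axis is the mean of both group means in CPM (log scale) and the vertical axis is the edgeR log2 fold change, HFD+TUDCA over HFD. Among the genes shown, DESeq2 called 271 lower and 76 higher in HFD+TUDCA (orange), while edgeR called 0; ringed genes are named.

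The 10 genes lower in HFD+TUDCA with the lowest p were Ifi205, Alox5ap, Ccl9, Slfn4, Padi4, S100a8, Gla, F10, Abcg1 and Hk3, and DESeq2 called each of them. Ifi205, an interferon-inducible gene of the p200 family, had 3.57 to 7.39 CPM in HFD+TUDCA and 22.9 to 42.0 CPM in HFD, a log2 fold change of -2.38 ± 0.28. Slfn4, a schlafen gene of myeloid cells, had 0.526, 1.72, 1.60 and 1.91 CPM in HFD+TUDCA 1 to 4, and 12.5, 11.5, 6.61 and 14.6 CPM in HFD 1 to 4. Padi4, which converts histone arginines to citrulline in neutrophils, averaged 1.61 ± 0.373 CPM in HFD+TUDCA and 6.34 ± 1.13 CPM in HFD (SD, n = 4 each). The absence of overlap in these genes was a condition of their choice. F10, coagulation factor X, averaged 4.29 ± 0.600 CPM in HFD+TUDCA and 15.4 ± 4.74 CPM in HFD. Hk3, a hexokinase of myeloid cells, averaged 13.7 ± 1.17 CPM in HFD+TUDCA and 32.1 ± 6.44 CPM in HFD. Gla, the lysosomal alpha-galactosidase, averaged 13.5 ± 1.46 CPM in HFD+TUDCA and 30.9 ± 4.75 CPM in HFD. The edgeR adjusted p of the 10 genes was 0.147 or 0.148. Ifi205 and Slfn4 belong to families of close relatives on their chromosomes, so their counts are uncertain where reads can be shared.

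The 10 genes higher in HFD+TUDCA with the lowest p included Nnat, Mmab, Axin2, Pgm1, Inka2, Ubac1, Tlcd1, H2-Q10 and Fbxo44, again all called by DESeq2; absence of overlap was a condition of the choice here too. Nnat, which encodes the small ER membrane protein neuronatin, had 32.4, 42.5, 27.1 and 50.8 CPM in HFD+TUDCA 1 to 4, and 5.87, 6.46, 12.9 and 13.1 CPM in HFD 1 to 4. Its log2 fold change was 2.00 ± 0.34, the largest of the 10. Axin2, a feedback inhibitor of Wnt signalling, averaged 17.5 ± 2.01 CPM in HFD+TUDCA and 8.61 ± 1.69 CPM in HFD. Mmab, an enzyme that activates vitamin B12, averaged 43.1 ± 6.98 CPM in HFD+TUDCA and 22.2 ± 3.77 CPM in HFD. Pgm1, a phosphoglucomutase, averaged 308 ± 41.5 CPM in HFD+TUDCA and 167 ± 29.4 CPM in HFD. Apart from Nnat and H2-Q10 (1.64 ± 0.36), the log2 fold changes lay between 0.78 and 1.02. H2-Q10 has near-identical relatives in the major histocompatibility complex, and its count is uncertain for that reason. The edgeR adjusted p of these 10 genes ran from 0.148 to 0.213.

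ER chaperones and folding factors, the gene group TUDCA is best known for, were lower in HFD+TUDCA as a group. This list and those below were chosen with earlier results of these data known, so their counts are no independent result. Hspa5 is counted in the chaperone list, Ccl9 in the CC chemokine list and Alox5ap in the leukotriene list. All 21 members of the chaperone list had a negative log2 fold change, with a median of -0.53, against a median of 0.00 and 7292 negative values over the 14587 genes tested. Of the 21 members, 12 were lower and 0 higher at an unadjusted p under 0.05 (6.54% and 5.42% of all genes), 9 were lower without overlap (4.17%), and DESeq2 called 6 lower (2.00%). Averaged over the list, log2 CPM came to 6.23, 6.32, 6.42 and 6.31 in HFD+TUDCA 1 to 4, and 6.94, 6.83, 6.98 and 6.99 in HFD 1 to 4. The groups did not overlap, and neither HFD+TUDCA 4 nor HFD 4 stood apart from its group. Manf, an ER-resident protein secreted under stress, had 53.9, 54.7, 66.8 and 50.1 CPM in HFD+TUDCA 1 to 4, and 85.2, 88.9, 134 and 123 CPM in HFD 1 to 4. Hsp90b1, the ER form of Hsp90, averaged 132 ± 43.5 CPM in HFD+TUDCA and 258 ± 63.2 CPM in HFD. Pdia6, a disulphide isomerase, averaged 160 ± 7.85 CPM in HFD+TUDCA and 244 ± 34.0 CPM in HFD. Creld2, an ER stress-inducible protein, averaged 25.0 ± 6.03 CPM in HFD+TUDCA and 43.9 ± 6.51 CPM in HFD. Calr, the lectin chaperone calreticulin, had 409 to 530 CPM in HFD+TUDCA and 498 to 796 CPM in HFD, where the groups overlapped. Xbp1, which encodes the transcription factor downstream of IRE1, averaged 183 ± 46.8 CPM in HFD+TUDCA and 304 ± 79.2 CPM in HFD, also with overlap. Its gene total does not separate spliced from unspliced mRNA. The number of members lower at an unadjusted p under 0.05 was 9 to 14 without 1 library at a time. It was 14 without both libraries numbered 4, where 15.1% of all genes were lower at that p.

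Promoters of several chaperone genes are known to carry the ER stress response element, the sequence bound by ATF6 together with NF-Y. In the 250 bases before the annotated start (RefSeq promoters, GRCm38.p6), a CCAAT box followed after 9 bases by CCACG was searched on both strands. It lay in 8 of the 18 chaperone promoters found in the table (44.4%), in 2 of 13 promoters of ER-associated degradation genes (15.4%), in 0 of 16 promoters of the PERK-ATF4 arm, and in 33 of all 27025 promoters (0.122%). The matches of 4 members are shown to compare their strand and the 9 bases between the blocks, written 5′ to 3′ on the gene's strand. Capitals mark the match, which reads on the opposite strand in Creld2 and Calr.
Hspa5 (chr2:34772020-34772048, plus strand): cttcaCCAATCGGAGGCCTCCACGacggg
Pdia6 (chr12:17266486-17266514, plus strand): agagaCCAATGAAAGGCGGCCACGgcgtg
Creld2 (chr15:88819515-88819543, plus strand): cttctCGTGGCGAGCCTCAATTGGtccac
Calr (chr8:84847070-84847098, minus strand): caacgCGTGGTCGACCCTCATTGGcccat
A match describes the sequence and is no measure of binding. Of these 4 genes, Hspa5, Pdia6 and Creld2 were lower in HFD+TUDCA without overlap, and Calr overlapped. Creld2 and Calr were chosen after their values were seen. Hsp90b1, Canx, Ero1b and Dnajc3 also held a match and are not shown. Whether a match goes with lower values was not tested.

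Genes of ER-associated degradation and of the PERK-ATF4 arm gave 0 DESeq2 calls, against 2.00% of all genes called lower and 0.542% called higher. At these shares lists of this size would hold few calls, so the 0 alone does not set them apart from all genes. Over all genes tested, 6.54% were lower and 5.42% higher at an unadjusted p under 0.05. Of 15 genes of ER-associated degradation, which draws misfolded proteins out for the proteasome, 13 had a negative log2 fold change with a median of -0.25, and 1 was lower and 1 higher at an unadjusted p under 0.05 (4 lower without HFD+TUDCA 4, 3 lower without HFD 3 and 0 lower without HFD+TUDCA 1, HFD 1 or HFD 2). Sel1l, a scaffold of the Hrd1 ubiquitin ligase, averaged 111 ± 3.63 CPM in HFD+TUDCA and 132 ± 5.23 CPM in HFD without overlap. Derl1, a channel component, ran the other way, with 272 ± 34.4 CPM in HFD+TUDCA and 200 ± 23.9 CPM in HFD. Of 16 genes of the PERK-ATF4 arm, 2 were lower at an unadjusted p under 0.05 and 0 were without overlap, with a median of -0.27 that was -0.08 without HFD 4. Atf4, the transcription factor of this arm, had 159, 162, 152 and 154 CPM in HFD+TUDCA 1 to 4, and 148, 139, 168 and 424 CPM in HFD 1 to 4. Only HFD 4 was high, and without it the log2 fold change turned from -0.49 to 0.04. Atf3 followed the same pattern, with 24.6 to 31.9 CPM in HFD+TUDCA, and 24.6 to 30.1 CPM in HFD 1 to 3 against 279 CPM in HFD 4. Ppp1r15a, which encodes the phosphatase subunit GADD34, had 50.2 to 65.8 CPM in HFD+TUDCA and 61.3 to 232 CPM in HFD. Ddit3, which encodes the death-linked factor CHOP, averaged 12.9 ± 2.83 CPM in HFD+TUDCA and 14.7 ± 3.88 CPM in HFD (log2 fold change -0.19 ± 0.25). Chac1, a glutathione-degrading target of ATF4, had 1.96 to 3.68 CPM in HFD+TUDCA. In HFD it had, from lowest to highest, 2.60, 7.01, 10.3 and 26.1 CPM, with HFD 4 at the low end.

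**Figure D3:**
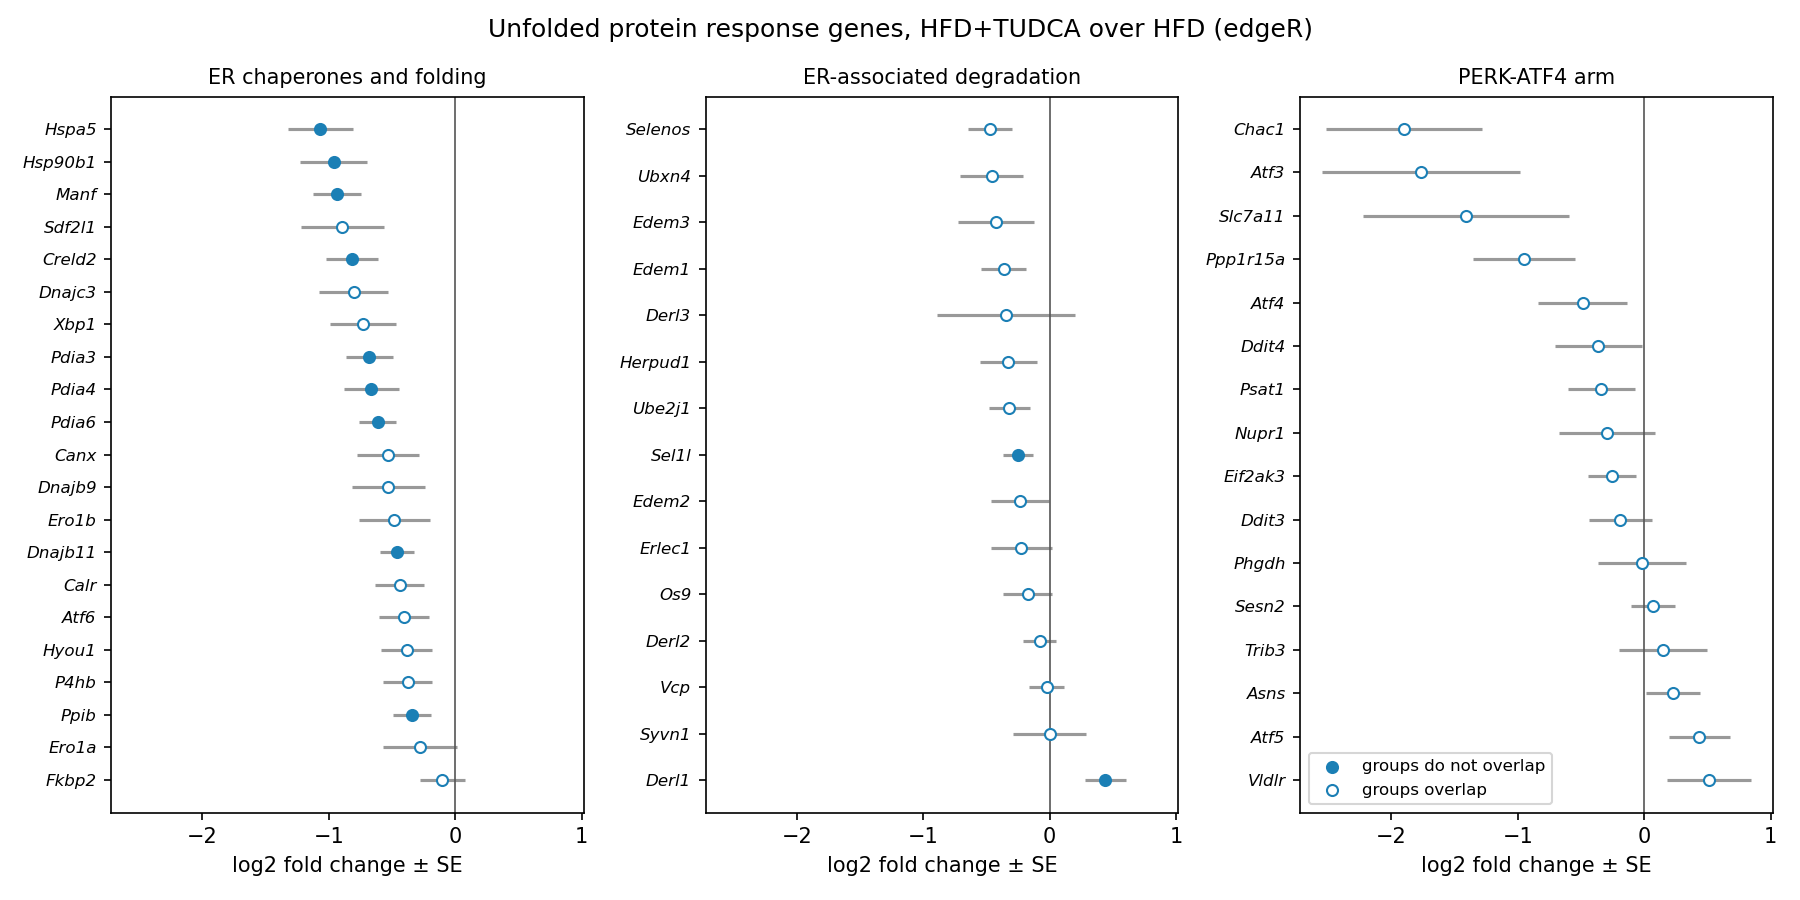
edgeR log2 fold change (HFD+TUDCA over HFD) ± SE of each tested gene of 3 unfolded protein response lists; filled points are genes whose libraries do not overlap between the groups. All 21 chaperone genes lie left of 0 and 9 of them are filled, while 1 gene on each side is filled among the 15 degradation genes and 0 are filled among the 16 of the PERK-ATF4 arm.

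Neutrophil genes and acute inflammatory mediators had the most negative medians among the inflammatory lists. Of 17 neutrophil genes, 12 were lower at an unadjusted p under 0.05 (6.54% of all genes). Of the 17, 11 were lower without overlap (4.17%) and 11 were called (2.00%), with a median log2 fold change of -2.36. Their mean log2 CPM was 2.26, 2.26, 2.96 and 2.13 in HFD+TUDCA 1 to 4, and 4.41, 5.18, 3.69 and 5.49 in HFD 1 to 4. Summed over the list, their level overlapped, at 220 to 843 CPM in HFD+TUDCA and 544 to 1600 CPM in HFD. The sum of HFD 3 (544 CPM) lay below those of HFD+TUDCA 1 (741 CPM) and HFD+TUDCA 3 (843 CPM). S100a9, the partner of S100a8, had 9.83, 13.1, 22.9 and 38.8 CPM in HFD+TUDCA 1 to 4, and 190, 289, 96.7 and 450 CPM in HFD 1 to 4. Mmp8, the neutrophil collagenase, had 0.526 to 4.44 CPM in HFD+TUDCA and 7.27 to 43.7 CPM in HFD. In both genes HFD+TUDCA 4 was the highest of its group and HFD 3 the lowest of its own. Red cell genes, a marker of blood in the tissue, summed to 1320 to 5720 CPM in HFD+TUDCA and 2910 to 14200 CPM in HFD, highest in HFD 4, and their part in these values was not tested.

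Of 14 acute mediators tested, 12 were lower at an unadjusted p under 0.05 (6.54% of all genes). Of the 14, 10 were lower without overlap (4.17%), and 9 were called (2.00%), with a median of -2.44. Ptx3, a soluble pattern recognition protein, had 0.631, 0.552, 1.84 and 0.516 CPM in HFD+TUDCA 1 to 4, and 24.9, 19.0, 8.33 and 105 CPM in HFD 1 to 4. Il6, the cytokine interleukin 6, had 0.207 to 0.736 CPM in HFD+TUDCA and 3.64 to 43.6 CPM in HFD. Il1b, the main inflammasome-processed cytokine, had 4.10, 5.22, 6.63 and 15.3 CPM in HFD+TUDCA 1 to 4, and 16.6, 26.3, 20.2 and 107 CPM in HFD 1 to 4. Il1a, its close relative, averaged 1.48 ± 0.451 CPM in HFD+TUDCA and 8.01 ± 4.55 CPM in HFD. HFD 4 was the highest library in all 4 genes. Without it, the log2 fold change was -4.30 in place of -5.47 for Ptx3, -3.59 in place of -5.09 for Il6 and -1.43 in place of -2.44 for Il1b. Without both libraries numbered 4, 10 members were lower at an unadjusted p under 0.05, as were 15.1% of all genes.

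Several chemokines were lower in HFD+TUDCA. Of 19 CC chemokines and receptors, 12 were lower at an unadjusted p under 0.05 (6.54% of all genes). Of the 19, 10 were lower without overlap (4.17%), and 8 were called (2.00%), with a median of -1.86, or -1.15 without HFD 1. Ccl2, which draws monocytes through Ccr2, had 2.73, 3.497, 3.85 and 2.94 CPM in HFD+TUDCA 1 to 4, and 35.2, 15.1, 25.7 and 106 CPM in HFD 1 to 4. Ccl7, a neighbour that acts on the same receptor, had 2.63 to 9.48 CPM in HFD+TUDCA and 20.9 to 140 CPM in HFD. Of 13 CXC chemokines and receptors, 6 were lower at an unadjusted p under 0.05, 3 without overlap, and 2 were called (median -0.67). Without HFD+TUDCA 1, 3 were lower at that p, and the mean log2 CPM of the CXC list overlapped, at 4.64 in HFD+TUDCA 3 and 4.50 in HFD 3. Cxcl1, a neutrophil attractant, had 3.10, 4.60, 10.4 and 4.86 CPM in HFD+TUDCA 1 to 4, and 43.2, 51.1, 18.8 and 260 CPM in HFD 1 to 4. Cxcl2, its relative, had 0.368 to 4.18 CPM in HFD+TUDCA and 9.45 to 37.9 CPM in HFD. For Cxcl1 the log2 fold change was -2.72 without HFD 4, in place of -4.03.

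Many of these mediators are known targets of NF-kappaB, so an NF-kappaB site, GGGA and TTTCC with 1 base of any kind between them, was searched on both strands of the same promoter window. It lay in 3 of 12 CXC promoters (25%), 1 of 13 acute mediator promoters (7.69%) and 0 of 11 CC promoters, against 91 of all 27025 promoters (0.337%). The matches of 3 genes with low values in all HFD+TUDCA libraries are shown, with the match in capitals.
Cxcl1 (chr5:90891169-90891188, plus strand): actccGGGAATTTCCctggc
Cxcl2 (chr5:90903797-90903816, plus strand): gctcaGGGAATTTCCctggt
Il6 (chr5:30013065-30013084, plus strand): aatgtGGGATTTTCCcatga
Cxcl1 and Cxcl2 lie close together on chromosome 5 and share the same 10 matched letters, of which the search leaves only 1 free. Cxcl3, also matched among the CXC promoters, has the same letters and did not pass the filter on low counts.

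Many macrophage genes were lower in HFD+TUDCA, some genes of foam cells among them. Of 20 general macrophage genes, 16 were lower at an unadjusted p under 0.05 (6.54% of all genes). Of the 20, 12 were lower without overlap (4.17%), and 10 were called (2.00%), with a median log2 fold change of -1.12. Summed over the list, their level was 3960, 4040, 4870 and 1750 CPM in HFD+TUDCA 1 to 4, and 7810, 7160, 7280 and 6890 CPM in HFD 1 to 4. HFD+TUDCA 4 was the lowest library, and the other 3 of its group were also below all HFD libraries. Cd68, the classical macrophage marker of lysosomes, had 86.3, 91.5, 106 and 51.6 CPM in HFD+TUDCA 1 to 4, and 234, 149, 194 and 168 CPM in HFD 1 to 4. Ctss, the elastin-degrading cathepsin S, averaged 203 ± 64.2 CPM in HFD+TUDCA and 647 ± 256 CPM in HFD. Fcer1g, the signalling chain shared by several Fc receptors, averaged 45.1 ± 11.8 CPM in HFD+TUDCA and 103 ± 30.7 CPM in HFD.

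Of 20 genes of foam cells and lesion macrophages, 11 were lower at an unadjusted p under 0.05 (6.54% of all genes). Of the 20, 12 were lower without overlap (4.17%), and 10 were called (2.00%), with a median of -0.81. Summed over the list, their level overlapped, at 10100 to 18200 CPM in HFD+TUDCA and 13000 to 22300 CPM in HFD. Trem2, the lipid-sensing receptor of lesion macrophages, had 14.8, 17.8, 23.9 and 16.5 CPM in HFD+TUDCA 1 to 4, and 69.9, 25.7, 81.6 and 31.6 CPM in HFD 1 to 4. HFD 2 came close to HFD+TUDCA 3 without crossing it. Cd5l, a secreted protein of tissue macrophages, averaged 180 ± 55.1 CPM in HFD+TUDCA and 487 ± 69.3 CPM in HFD. Spp1 (osteopontin) and Mmp12 (the macrophage elastase) overlapped between the groups. Spp1 had 65.6 to 489 CPM in HFD+TUDCA and, from lowest to highest, 206, 272, 1194 and 1545 CPM in HFD. Mmp12 had 35.8 to 86.5 CPM in HFD+TUDCA and 59.9 to 155 CPM in HFD.

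Cholesterol efflux genes under the liver X receptor were lower in part. Of 11 tested, 5 were lower at an unadjusted p under 0.05 (6.54% of all genes). Of the 11, 5 were lower without overlap (4.17%), and 3 were called (2.00%), with a median of -0.42. Abcg1, which exports cholesterol to HDL, had 81.6, 89.7, 86.9 and 49.2 CPM in HFD+TUDCA 1 to 4, and 244, 199, 178 and 189 CPM in HFD 1 to 4 (log2 fold change -1.40 ± 0.22). Abca1, which exports cholesterol to apolipoprotein A-I, had 107 to 138 CPM in HFD+TUDCA and 234 to 418 CPM in HFD. Apoc1, an apolipoprotein made by macrophages, averaged 39.4 ± 15.2 CPM in HFD+TUDCA and 135 ± 36.5 CPM in HFD. Among 19 lysosome genes, 8 were lower at an unadjusted p under 0.05, and 12 were lower without overlap (median -0.44).

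Of 19 myeloid immune receptors, 16 were lower at an unadjusted p under 0.05 (6.54% of all genes). Of the 19, 13 were lower without overlap (4.17%), and 13 were called (2.00%), with a median of -1.53. Clec4e (Mincle), which senses microbial glycolipids and dead cells, had 2.47, 3.68, 4.92 and 3.31 CPM in HFD+TUDCA 1 to 4, and 17.5, 19.6, 10.3 and 48.0 CPM in HFD 1 to 4. Its neighbour Clec4d averaged 5.92 ± 2.93 CPM in HFD+TUDCA and 25.5 ± 6.36 CPM in HFD. Fcgr3, a low-affinity IgG receptor, averaged 56.8 ± 16.6 CPM in HFD+TUDCA and 167 ± 57.0 CPM in HFD. Of 9 inflammasome genes, 4 were lower at an unadjusted p under 0.05. Nlrp3, the sensor of crystals and cell damage, had 2.39 to 4.03 CPM in HFD+TUDCA, and 10.4, 6.09, 5.29 and 37.4 CPM in HFD 1 to 4. Markers of lymphocytes and antigen presentation gave smaller counts: 2 of 15 T and NK cell genes, 1 of 13 B and plasma cell genes and 0 of 9 MHC class II genes were lower at an unadjusted p under 0.05. The T and NK cell genes summed to 295, 407, 411 and 49.0 CPM in HFD+TUDCA 1 to 4, and 145, 532, 122 and 560 CPM in HFD 1 to 4.

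Many interferon-stimulated genes were lower in HFD+TUDCA, and the count rested in part on HFD 4. Of 14 tested, 11 were lower at an unadjusted p under 0.05 (6.54% of all genes), 6 without overlap (4.17%), and 5 were called (2.00%). The median log2 fold change was -1.56, and -0.74 without HFD 4, where 6 members were lower at an unadjusted p under 0.05. Without HFD+TUDCA 4, 7 were. Ifi44, an interferon-induced protein, had 1.42, 2.02, 2.37 and 2.22 CPM in HFD+TUDCA 1 to 4, and 6.54, 5.61, 5.49 and 8.97 CPM in HFD 1 to 4. Ifit2, which binds foreign RNA, averaged 8.22 ± 2.95 CPM in HFD+TUDCA and 23.0 ± 12.5 CPM in HFD. Cxcl10, an attractant of T cells, had 3.21, 6.75, 6.40 and 2.89 CPM in HFD+TUDCA 1 to 4, and 13.4, 17.0, 9.72 and 295 CPM in HFD 1 to 4. Its log2 fold change of -4.13 was -1.48 without HFD 4. The core of the interferon-stimulated response element, a pair of GAAA blocks with 2 bases between them, lay in 7 of 12 promoters of the list (58.3%), against 821 of all 27025 promoters (3.04%). The match of Cxcl10 is shown as an example, in capitals on the gene's strand.
Cxcl10 (chr5:92349088-92349107, minus strand): ctttgGAAAGTGAAActtac

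Genes of leukocyte entry and matrix breakdown were lower in part. Of 13 adhesion genes, 5 were lower at an unadjusted p under 0.05 (6.54% of all genes), 4 without overlap (4.17%), and 1 was called (2.00%). Without HFD+TUDCA 1, HFD+TUDCA 4 or HFD 4, 3 were lower at that p. Vcam1, which holds monocytes on activated endothelium, had 59.1, 132, 140 and 168 CPM in HFD+TUDCA 1 to 4, and 316, 194, 202 and 418 CPM in HFD 1 to 4. Sele, the endothelial selectin E, had 0.894 to 2.17 CPM in HFD+TUDCA, and 15.6, 3.63, 3.37 and 120 CPM in HFD 1 to 4. Selp, selectin P, had 11.04 to 18.4 CPM in HFD+TUDCA, and 53.8, 22.6, 30.5 and 484 CPM in HFD 1 to 4. Icam1, a ligand of leukocyte integrins, had 38.8 to 77.3 CPM in HFD+TUDCA, and 86.2, 91.4, 64.5 and 1203 CPM in HFD 1 to 4. For Sele, Selp and Icam1 the size of the difference rested largely on HFD 4. Without it, the log2 fold change was -2.25 in place of -4.49 for Sele. It was -1.29 in place of -3.33 for Selp and -0.28 in place of -2.44 for Icam1. For Vcam1 the log2 fold change stayed between -1.34 and -0.93 without 1 library at a time. Vcam1, Sele and Selp did not overlap between the groups, and Icam1 did. Of 16 matrix metalloproteinase and inhibitor genes, 7 were lower at an unadjusted p under 0.05, 5 without overlap, and 4 were called (median -0.71). Adam8, a sheddase of leukocytes, had 12.9 to 30.9 CPM in HFD+TUDCA and 42.5 to 64.0 CPM in HFD. Mmp14, a membrane-bound collagenase, averaged 36.6 ± 8.88 CPM in HFD+TUDCA and 69.3 ± 11.6 CPM in HFD.

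In the leukotriene and prostanoid pathway Alox5ap stood out. Of 16 genes, 5 were lower (6.54% of all genes) and 1 higher (5.42%) at an unadjusted p under 0.05. Alox5ap was the only one called, against 2.00% of all genes called lower. Without HFD 1, 3 were lower at that p. Tbxas1, which makes thromboxane, had 11.2, 9.20, 14.5 and 7.38 CPM in HFD+TUDCA 1 to 4, and 34.3, 19.0, 18.3 and 15.1 CPM in HFD 1 to 4. Ptgds, a prostaglandin D2 synthase, was the higher one, with 2.42, 3.25, 29.4 and 4.65 CPM in HFD+TUDCA 1 to 4, and 0.611, 0.801, 2.18 and 1.92 CPM in HFD 1 to 4. Its log2 fold change was 1.32 without HFD+TUDCA 3, in place of 2.85.

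Some genes of sterol and fatty acid synthesis were higher in HFD+TUDCA, and so were some fat cell markers. Of 20 cholesterol synthesis genes, 8 were higher and 0 lower at an unadjusted p under 0.05 (5.42% of all genes were higher), 3 were higher without overlap (3.27%), and 3 were called (0.542%), with a median log2 fold change of 0.50. The 8 became 5 without HFD+TUDCA 4 or HFD 1 and 4 without HFD 2. Nsdhl, a sterol dehydrogenase, had 24.1, 41.0, 29.7 and 54.2 CPM in HFD+TUDCA 1 to 4, and 16.4, 18.7, 19.6 and 16.2 CPM in HFD 1 to 4. Insig1, the sterol-sensing anchor of SREBP, had 165, 171, 81.1 and 322 CPM in HFD+TUDCA 1 to 4, and 29.3, 56.4, 94.2 and 43.7 CPM in HFD 1 to 4. HFD+TUDCA 3 lay within the HFD range. Hmgcs1, an early enzyme of the pathway, averaged 120 ± 84.5 CPM in HFD+TUDCA and 57.7 ± 18.2 CPM in HFD, and its log2 fold change of 1.06 was 0.48 without HFD+TUDCA 4. The sterol regulatory element letters TCACNCCAC lay in 1 of 14 promoters of the list (7.14%), that of Hmgcs1, and in 280 of all 27025 promoters (1.04%).

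Of 16 fatty acid synthesis genes, 5 were higher (5.42% of all genes) and 1 lower (6.54%) at an unadjusted p under 0.05. Of the 16, 3 were higher without overlap (3.27%), and 3 were called (0.542%), with a median of 0.72. The 5 became 8 without HFD 3, and 3 without HFD+TUDCA 2, HFD+TUDCA 4, HFD 1 or HFD 2. Acss2, which makes acetyl-CoA from acetate, had 109, 179, 128 and 149 CPM in HFD+TUDCA 1 to 4, and 38.9, 51.8, 76.5 and 83.2 CPM in HFD 1 to 4. Pnpla3, a lipid-droplet hydrolase under SREBP control, averaged 39.6 ± 7.54 CPM in HFD+TUDCA and 15.2 ± 7.34 CPM in HFD. Fasn, fatty acid synthase, had 3327 to 10120 CPM in HFD+TUDCA and 442 to 3183 CPM in HFD. Of 17 fatty acid oxidation genes, 6 were higher at an unadjusted p under 0.05 and 0 were called. The 6 became 12 without HFD 3, and 3 without HFD+TUDCA 4, HFD 1, HFD 2 or HFD 4. Cpt1b, the muscle and brown fat carnitine transferase, had 454 to 866 CPM in HFD+TUDCA and 201 to 556 CPM in HFD, with overlap.

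Fat around the vessel expresses many of these genes strongly. Of 14 white adipocyte genes, 3 were higher at an unadjusted p under 0.05 (5 without HFD+TUDCA 3) and 1 was called. Over all genes, 5.42% were higher at that p and 0.542% were called higher. Plin1, the coat protein of fat droplets, had 1158, 986, 569 and 1045 CPM in HFD+TUDCA 1 to 4, and 310, 489, 558 and 408 CPM in HFD 1 to 4. Of 9 brown fat genes, 3 were higher at an unadjusted p under 0.05 (7 without HFD 3) and 2 were called. Ucp1, the heat-producing proton carrier of brown fat, had 3480, 3629, 1996 and 5028 CPM in HFD+TUDCA 1 to 4, and 307, 454, 1710 and 1654 CPM in HFD 1 to 4. Elovl3, a fatty acid elongase of brown fat, had 94.9 to 288 CPM in HFD+TUDCA and 11.3 to 75.9 CPM in HFD. The brown fat list summed to 3470 to 8170 CPM in HFD+TUDCA and 889 to 3900 CPM in HFD, and the white adipocyte list to 10900 to 23700 CPM in HFD+TUDCA and 11500 to 16400 CPM in HFD. Both sums overlapped between the groups, and HFD+TUDCA 3 was the lowest of all 8 libraries in the white adipocyte sum. No member of either list was at 0 in all libraries of a group. The part of fat tissue in the values for lipid synthesis was not tested.

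The bile acid receptors Gpbar1 and Nr1h4 were barely expressed in these aortas. Of 17 genes of bile acid receptors and transporters, 8 passed the filter on low counts. Of these, 2 were lower at an unadjusted p under 0.05 (1 without HFD 3), against 6.54% of all genes. Gpbar1, the membrane bile acid receptor TGR5, had 0 to 0.155 CPM in HFD+TUDCA and 0 to 0.226 CPM in HFD and was not tested. A library with no count allows up to 0.155 to 0.198 CPM (3 counts, counting error only). Nr1h4, the nuclear bile acid receptor FXR, had 0.0517 to 0.421 CPM in HFD+TUDCA and 0.611 to 0.991 CPM in HFD. Abcc3, an exporter of bile acid conjugates, was called, with 9.52, 7.73, 12.5 and 5.01 CPM in HFD+TUDCA 1 to 4, and 23.5, 15.8, 19.4 and 16.9 CPM in HFD 1 to 4.

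The contractile, collagen and general endothelial lists held 0 genes called by DESeq2, against 2.00% of all genes called lower and 0.542% called higher. At these shares lists of this size would hold few calls, so the 0 is no result about them. Of 17 contractile smooth muscle genes, 1 was higher at an unadjusted p under 0.05 (5.42% of all genes) and 0 were without overlap. Their median log2 fold change of 0.41 was 0.04 without both libraries numbered 4. Myh11, smooth muscle myosin, had 322, 300, 370 and 821 CPM in HFD+TUDCA 1 to 4, and 494, 268, 411 and 273 CPM in HFD 1 to 4. Only HFD+TUDCA 4 was high, and without it the log2 fold change turned from 0.33 to -0.10. Smtn, a smooth muscle cytoskeletal protein, averaged 131 ± 44.1 CPM in HFD+TUDCA and 86.4 ± 20.1 CPM in HFD. Of 19 collagen and elastic fibre genes, 0 were lower or higher at an unadjusted p under 0.05 (median -0.26). Without both libraries numbered 4 the lower ones came to 4, in a fit where 15.1% of all genes were lower at that p. Col1a1, a chain of type I collagen, averaged 156 ± 38.3 CPM in HFD+TUDCA and 275 ± 156 CPM in HFD. Col3a1, type III collagen, averaged 490 ± 172 CPM in HFD+TUDCA and 940 ± 547 CPM in HFD. In both collagens HFD 1 and HFD 3 were high while HFD 2 and HFD 4 lay within or near the HFD+TUDCA range. Of 14 endothelial genes, 0 passed an unadjusted p of 0.05 in either direction (median -0.04).

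**Figure D4:**
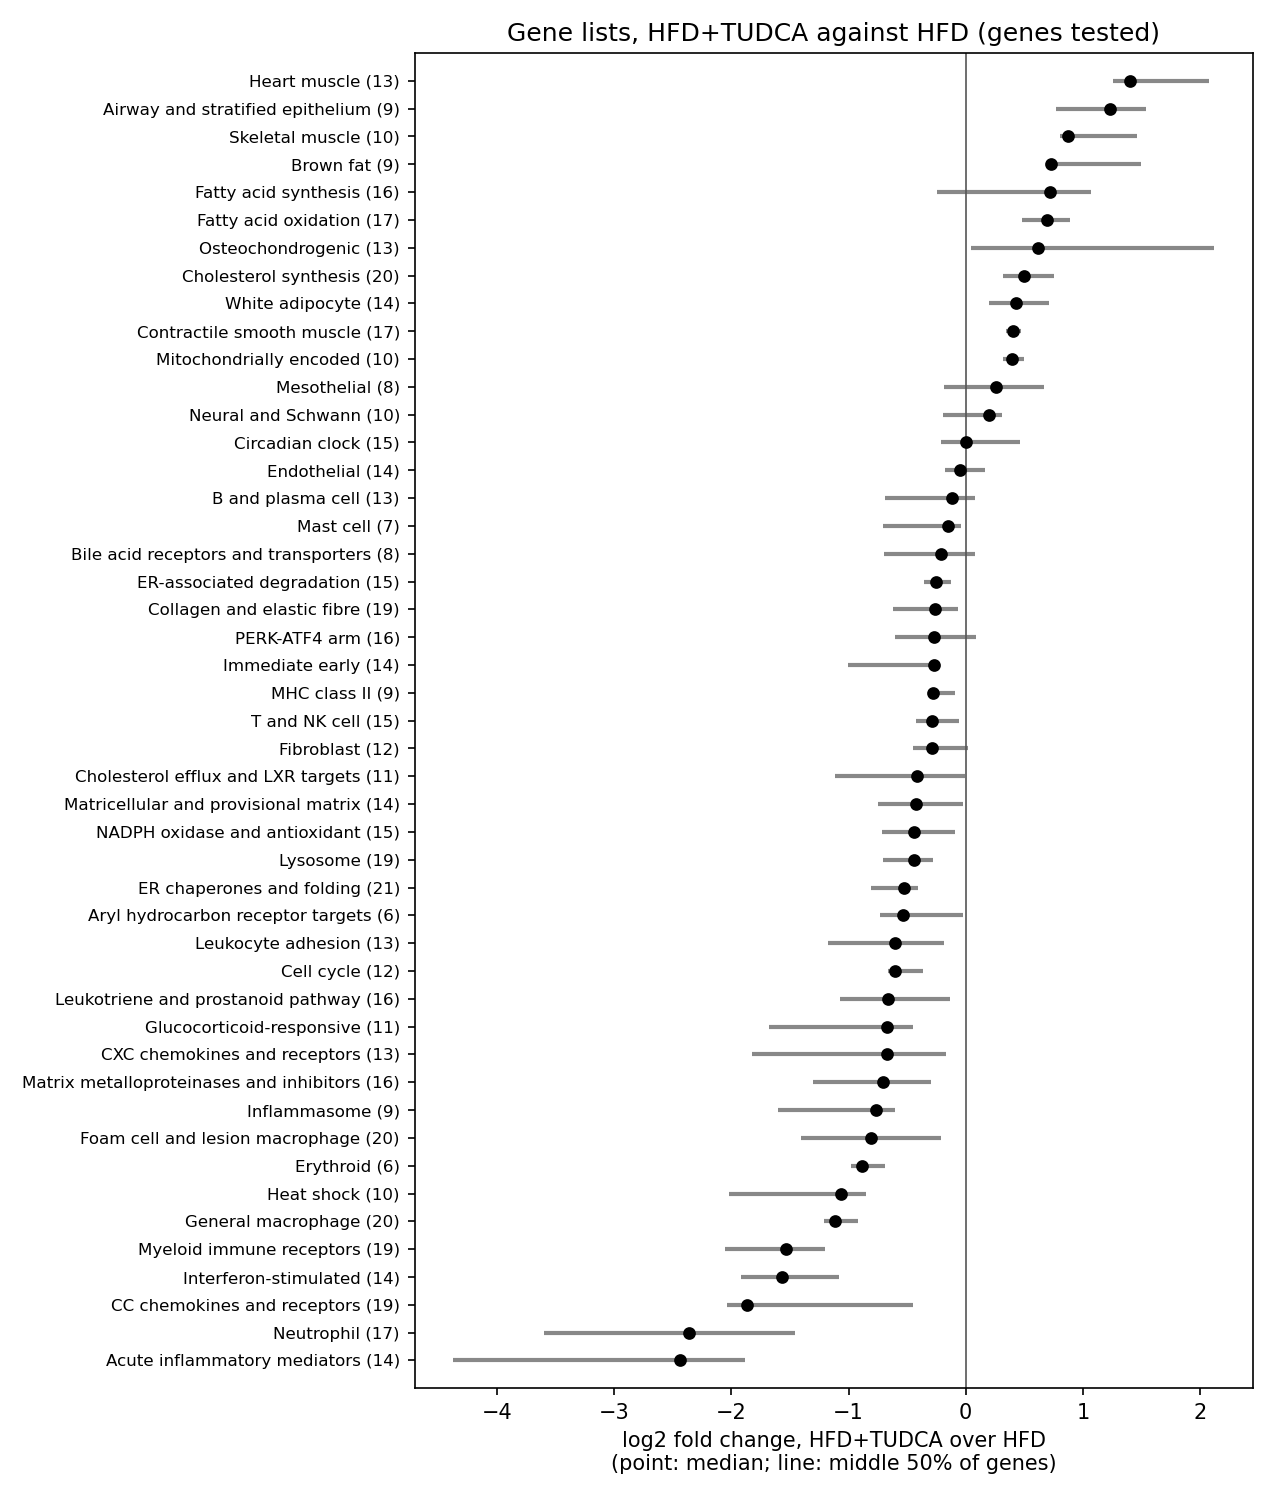
Median log2 fold change (HFD+TUDCA over HFD, edgeR) of each gene list with at least 5 tested genes; the number tested is in parentheses and the grey line spans the middle 50% of its genes. Acute inflammatory mediators (-2.44) and neutrophil genes (-2.36) lie lowest, chaperones at -0.53, endothelial genes near 0, and heart muscle at 1.41, which was 0.25 without HFD+TUDCA 3.

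Among stress genes, 4 glucocorticoid-responsive ones were lower in HFD+TUDCA. All 11 glucocorticoid-responsive genes had a negative log2 fold change (median -0.67). Of these, 4 were lower at an unadjusted p under 0.05 (6.54% of all genes) and 3 were called (2.00%). Without both libraries numbered 4, 8 were lower at that p, as were 15.1% of all genes. Mt2, a metallothionein, had 66.7, 90.8, 137 and 132 CPM in HFD+TUDCA 1 to 4, and 1105, 307, 333 and 964 CPM in HFD 1 to 4. Its neighbour Mt1 averaged 165 ± 22.5 CPM in HFD+TUDCA and 636 ± 356 CPM in HFD. Fkbp5, a chaperone partner of the glucocorticoid receptor, had 65.0, 55.4, 73.7 and 57.6 CPM in HFD+TUDCA 1 to 4, and 356, 144, 113 and 134 CPM in HFD 1 to 4. Hmox1, the haem-degrading enzyme induced by oxidative stress, averaged 36.5 ± 7.33 CPM in HFD+TUDCA and 131 ± 80.3 CPM in HFD. Adrenal steroid genes were present in the libraries HFD 3 and HFD 4: their list summed to 6.40 to 11.8 CPM in HFD+TUDCA, and to 8.62, 15.5, 1270 and 4200 CPM in HFD 1 to 4. All 4 adrenal genes tested were lower at an unadjusted p under 0.05. Star, which brings cholesterol to steroid synthesis, had 3.82 to 5.34 CPM in HFD+TUDCA, and 3.97, 6.51, 282 and 1076 CPM in HFD 1 to 4. Hsd3b1, a steroid dehydrogenase, had 0.103 to 0.798 CPM in HFD+TUDCA, and 0.428, 2.08, 341 and 681 CPM in HFD 1 to 4. HFD 1, with the highest Fkbp5 and Mt2, held none of this excess, and the part of adrenal tissue in the other values was not tested. Of 10 heat shock genes, 5 were lower at an unadjusted p under 0.05, and 0 without HFD 4. Hspa1a, an inducible Hsp70, had 9.02 to 14.2 CPM in HFD+TUDCA, and 12.3, 12.1, 23.6 and 852 CPM in HFD 1 to 4. Reads of Hspa1a and its near-identical copy can be shared, so its count is uncertain.

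Marker genes of other tissues varied widely between libraries. Of 13 heart muscle genes, 1 was higher at an unadjusted p under 0.05 (5.42% of all genes), and 9 were without HFD+TUDCA 4. Their median log2 fold change of 1.41 was 0.25 without HFD+TUDCA 3. Of 10 skeletal muscle genes 1 was higher at that p, and of 9 airway genes 0 were. Heart muscle genes summed to 2130, 2440, 11900 and 58.0 CPM in HFD+TUDCA 1 to 4, and 405, 982, 1080 and 2860 CPM in HFD 1 to 4. Myh6, the cardiac myosin, had 589, 671, 3546 and 4.13 CPM in HFD+TUDCA 1 to 4, and 106, 212, 275 and 548 CPM in HFD 1 to 4. Airway genes also varied by library, with Bpifa1, a secreted airway protein, at 3239, 5.58, 1907 and 0.155 CPM in HFD+TUDCA 1 to 4, and 1.04, 985, 261 and 2.60 CPM in HFD 1 to 4. HFD+TUDCA 4 was low in heart, skeletal muscle, airway and lymphocyte genes alike: its Ighm, the IgM heavy chain of B cells, stood at 913 CPM, against 2442 to 4897 CPM in the other 3 HFD+TUDCA libraries and 1804 to 9192 CPM in HFD. The share of counts from mitochondrial genes was 11.6%, 14.2%, 10.5% and 19.2% in HFD+TUDCA 1 to 4, and 12.5%, 10.1%, 16.0% and 8.56% in HFD 1 to 4. The part of these differences between libraries in the inflammatory and lipid values was not tested, beyond the values without single libraries given above.

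**Figure D5:**
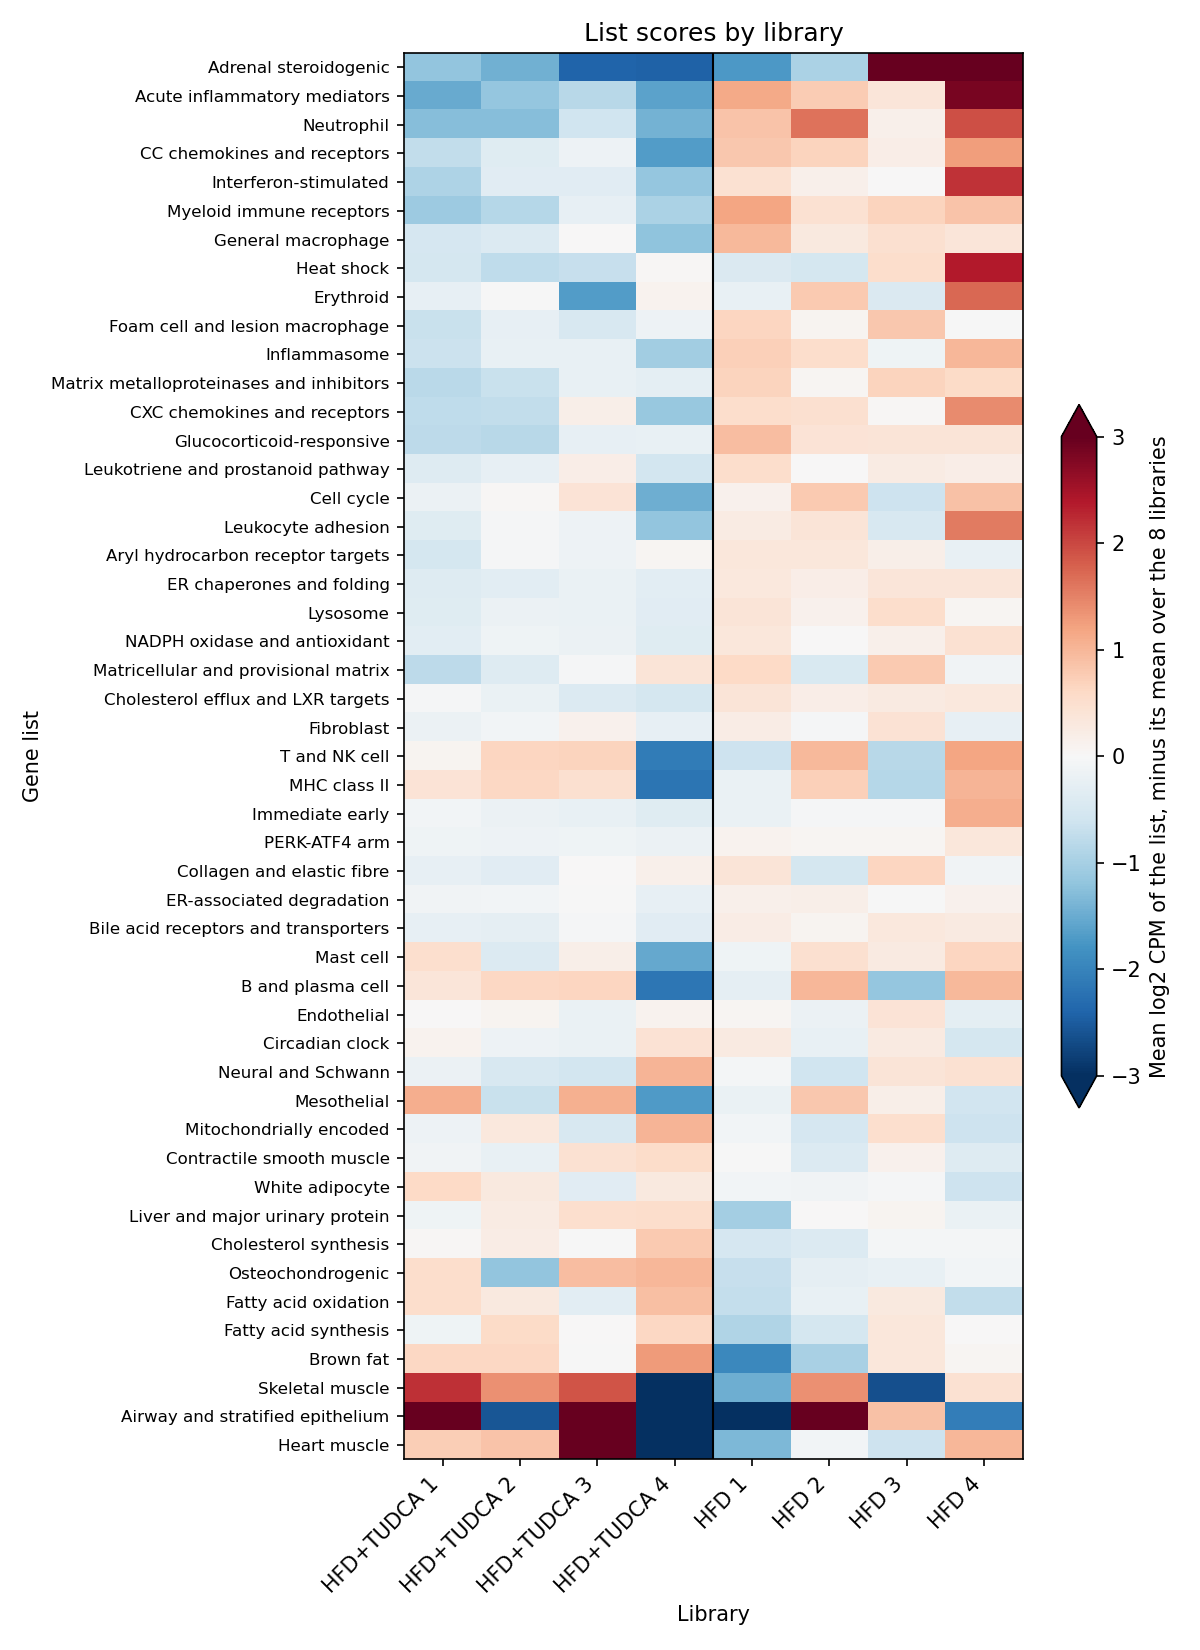
Mean log2 CPM of each of the 49 gene lists (down the page) in each library (across, HFD+TUDCA left of HFD), minus the list's mean over the 8 libraries; red is above that mean and blue below. Neutrophil, acute inflammatory and ER chaperone lists are blue in all 4 HFD+TUDCA libraries and red in all 4 HFD libraries, adrenal genes are red in HFD 3 and HFD 4 alone, and HFD+TUDCA 4 is blue in lymphocyte, heart, skeletal muscle and airway lists.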

How the data were processed

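RNA was extracted with Trizol, enriched for poly(A) and made into libraries with a NEBNext Ultra kit, per the labels' protocols. The genome was GRCm38, per the submitters' processing notes. Which aligner, counting program and strand setting were used is not given in the sources used here, so overlapping genes cannot be told apart. The authors deposited a count and an FPKM value for each of 22183 genes. The deposited columns are taken to hold estimated counts, because 8.53% to 9.23% of entries per library were fractional; they were rounded before testing. The deposited FPKM values served in alternatives only. A gene with no count in a library allows up to 0.155 to 0.198 CPM (3 counts), which covers counting error only.

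The main test was edgeR 4.0.16 (R 4.3.3) on the 8 libraries alone: the robust quasi-likelihood fit with TMM scaling, filterByExpr (count 10, total 15), and Benjamini-Hochberg adjusted p under 0.05. Scores average log2 CPM (prior count 2). DESeq2 1.42.0 was an alternative; the labels' protocols name DESeq2 with a false discovery rate under 0.05 and a fold change of at least 2. Others were limma-voom and limma-trend (limma 3.58.1) on log2(FPKM + 1) and log2(FPKM + 0.1), other scalings and filters, a replicate block and left-out libraries. The code was tested on simulated data.

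The comparison and the 49 gene lists (652 genes) were chosen with earlier results of these data known. Named genes follow a rule: in each direction the 10 lowest p among genes averaging 1 CPM or more whose groups do not overlap, leaving out predicted genes and immunoglobulin or T cell receptor segments; for every list, at most 3 tested genes by p; and a fixed panel. Of these, not all are reported here. Creld2, Hsp90b1, Calr and Hmgcs1 lie outside the rule and were chosen after their values were seen. Gene positions come from GENCODE M21 (GRCm38) and promoters from RefSeq (GRCm38.p6).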

Additional observations from a re-analysis of the deposited data

Results flagged for a closer look

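Of 292 groups of 4 libraries (genes named above and list scores), 33 held 1 library far from the other 3, by Dixon's test of the gap to its nearest neighbour over the group's range. Chance marks about 1 group in 20 where values are normally distributed. Gene values were tested as CPM on a linear scale, and groups drawn from the same libraries are not independent. The share that chance marks here was not tested.

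Most of the high values lay in HFD 4. It held 260 CPM of Cxcl1, 295 CPM of Cxcl10, 105 CPM of Ptx3, 43.6 CPM of Il6, 107 CPM of Il1b, 120 CPM of Sele, 484 CPM of Selp, 1200 CPM of Icam1 and 37.4 CPM of Nlrp3. It also held 424 CPM of Atf4, 279 CPM of Atf3 and 852 CPM of Hspa1a. Its list scores stood apart for the PERK-ATF4 arm (mean log2 CPM 5.47), immediate early genes (6.55) and, on the low side, white adipocyte genes (8.58).

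HFD+TUDCA 4 stood apart as high for Mmp8 (4.44 CPM), Atf3 (31.9 CPM), Acta2 (1990 CPM) and Myh11 (821 CPM). It was low for Icam1 (38.8 CPM) and for the scores of MHC class II (5.21), B and plasma cell (5.15) and skeletal muscle genes (0.72).

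HFD+TUDCA 3 was high for Ptx3 (1.84 CPM), Ptgds (29.4 CPM) and the neutrophil score (2.96). HFD+TUDCA 1 was low for Ifi205 (3.57 CPM). HFD 1 was high for Alox5ap (84.7 CPM), Abca1 (418 CPM), Fkbp5 (356 CPM) and the glucocorticoid-responsive score (7.77). HFD 2 was low for Hk3 (22.4 CPM) and for the score of matrix metalloproteinases and their inhibitors (5.45).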

How the results depend on the processing

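The edgeR count of 0 genes stayed 0 under RLE and upper-quartile scaling, both other filters, the fit without robust weights, limma-voom, limma-trend on either FPKM scale, an adjusted p under 0.1, a fold change of at least 2, each library left out (1082 to 2422 genes at an unadjusted p under 0.05) and both libraries numbered 4 left out. DESeq2 called 356 genes (280 lower, 76 higher), 30 of the higher ones with a fold change of at least 2. Its calls ran from 151 to 771 without 1 library at a time (130 to 409 lower, 18 to 362 higher) and came to 1144 (803 lower, 341 higher) without both libraries numbered 4, refits added after seeing the data. With the replicate number as a block, edgeR called 0 genes, with 816 at an unadjusted p under 0.05. Same-numbered libraries had deviations correlated at -0.477 to -0.035, and differently numbered ones at -0.556 to 0.524. These values cannot decide whether the numbers mark a shared batch or litter, because the libraries also differed in heart, airway and adrenal genes. The part of these genes in the deviations was not tested. The labels do not say what the numbers mark. Among the genes named, 3 turned sign. The log2 fold change of Atf4 ranged from -0.653 to 0.044 without 1 library and was 0.048 without both libraries numbered 4. The log2 fold change of Myh11 ranged from -0.104 to 0.512 and was -0.25 without both. The log2 fold change of Apoe ranged from -0.403 to 0.222, and was -0.049 by limma-voom, -0.122 and -0.133 on log2(FPKM + 1) and log2(FPKM + 0.1), and -0.069 with the block. The cause of these shifts was not tested. The common biological coefficient of variation was 0.398 at 4 libraries a group, and the smallest difference detectable was not tested.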

Other observations

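Over all genes tested, 6.54% were lower and 5.42% higher at an unadjusted p under 0.05. Among lists not described above, clock genes showed no common direction. Of 15 genes, 3 were higher at an unadjusted p under 0.05, and 0 were without HFD+TUDCA 1. Their median log2 fold change was 0.00. All 12 cell cycle genes had a negative log2 fold change (median -0.61), and 1 was lower at an unadjusted p under 0.05. Without HFD+TUDCA 3 or HFD 3, 3 were lower, and the median was -0.912 without HFD+TUDCA 3, -0.329 without HFD+TUDCA 4 and -0.386 without HFD 2. Of 6 aryl hydrocarbon receptor targets, 3 were lower at an unadjusted p under 0.05 (0 without HFD+TUDCA 1 or HFD 1) and 0 were called (2.00% of all genes were called lower). Of 15 NADPH oxidase and antioxidant genes, 3 were lower (median -0.44), and of 14 immediate early genes, 3 were lower. Of 14 matricellular genes, 2 were lower, of 13 osteochondrogenic genes, 1 was lower and 1 higher (6 higher without HFD+TUDCA 2), and of 12 fibroblast genes, 1 was lower. All 10 mitochondrially encoded genes had a positive log2 fold change (median 0.39), with 0 at an unadjusted p under 0.05. The median was 0.086 without HFD+TUDCA 4, 0.256 without HFD 4, 0.619 without HFD 3 and -0.079 without both libraries numbered 4. Of 7 mast cell genes and of 6 erythroid genes, 1 each was lower. Of 8 mesothelial genes 0 passed an unadjusted p of 0.05, and of 10 neural and Schwann cell genes 1 was lower. Of 11 liver and urinary protein genes, 4 passed the filter, with 1 lower and 1 higher.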
